A study of Mus musculus with 4 samples.

Results

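The EGFR family ligands and receptors were followed as 9 genes of the deposited count table, chosen by symbol from its 23377 genes. They are 6 ligand genes (Ereg, Tgfa, Hbegf, Btc, Areg and Nrg1) and 3 receptor genes (Egfr, Erbb2 and Erbb3). The samples were cancer-associated fibroblasts (CAFs), the fibroblasts of a tumour, from mouse. A pair of libraries carried the phenotype label of resistant tumours (titled RES4) and a pair carried that of normal tumours (titled WTA). The labels name no strain, genotype, drug, age, sort or culture for either group, and describe a TruSeq and a SMART-seq2 library preparation without saying which library had which, so preparation and group cannot be told apart. The series title concerns lactate from cancer cells and resistance to drugs against MET and EGFR, and the comparison here was resistant with normal tumour CAFs. Within a group the titles differ in the replicate number alone, so each group may come from 1 tumour or culture. The p-values then reflect how far the libraries of a group differ, which may be partly a technical matter.

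The receptors of this family are tyrosine kinases that pair on binding a ligand and signal through the RAS-MAPK and PI3K-AKT pathways. EGFR binds epiregulin, TGF-alpha, HB-EGF, betacellulin and amphiregulin. ERBB3 binds some of the neuregulins and has a weak kinase of its own, and ERBB2 binds no known ligand and serves as a partner for the others. The ligands are made as membrane proteins and released by sheddases, and tumour fibroblasts are a known source of such ligands for neighbouring cancer cells.

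Promoter sequence in the RefSeq table (build GRCm38.p6) was found for 5 of the 9 genes, namely Areg, Btc, Tgfa, Egfr and Erbb2. Those of Egfr and Erbb2 are shown because these receptors lay on opposite sides in the comparison, although Erbb2 did not pass the test described below. That of Areg is shown because it holds a pair of motifs absent from the other 4. Each line gives the 250 bases before the annotated start, 5′ to 3′ on the gene's strand (+ for all 3). Capitals mark matches on either strand to a TATA box (TATAAA), a cAMP response element (TGACGTCA), an AP-1 site (TGANTCA) or a GC box (GGGCGG). None of these matches overlapped another.
Egfr, chr11:16751953-16752202: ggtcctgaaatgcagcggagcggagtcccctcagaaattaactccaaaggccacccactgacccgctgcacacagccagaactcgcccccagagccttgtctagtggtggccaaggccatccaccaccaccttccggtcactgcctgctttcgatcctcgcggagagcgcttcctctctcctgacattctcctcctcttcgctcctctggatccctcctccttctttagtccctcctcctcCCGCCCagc
Erbb2, chr11:98412234-98412483: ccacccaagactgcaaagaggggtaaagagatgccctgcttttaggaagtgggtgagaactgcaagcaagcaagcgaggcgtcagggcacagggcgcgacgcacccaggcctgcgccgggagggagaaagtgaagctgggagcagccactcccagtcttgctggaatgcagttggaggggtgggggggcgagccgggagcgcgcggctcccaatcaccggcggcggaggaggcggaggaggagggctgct
Areg, chr5:91139349-91139598: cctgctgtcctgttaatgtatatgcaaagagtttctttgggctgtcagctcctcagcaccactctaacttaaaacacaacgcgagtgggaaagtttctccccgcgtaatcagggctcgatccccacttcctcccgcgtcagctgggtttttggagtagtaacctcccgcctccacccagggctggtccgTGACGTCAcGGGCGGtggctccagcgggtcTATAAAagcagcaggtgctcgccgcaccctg
The Egfr window held 1 GC box, starting 9 bases before the start, and the Erbb2 window held no match to any of the 4 motifs. Areg held a cAMP response element, a GC box and a TATA box, starting 61, 52 and 31 bases before the start. The Tgfa window held 2 GC boxes, and the Btc window held no match. Among 32841 promoter windows of the same length, 32.7% held the GC box, 12.4% the TATA box, 6.75% the AP-1 site and 1.55% the cAMP response element. The bases were 60.8% G or C before Egfr, 66% before Erbb2, 69.2% before Tgfa, 59.6% before Btc and 57.2% before Areg, against a median of 52.4% over all windows.

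Libraries held 2845237 and 2785936 reads in resistant tumour CAFs, and 3948066 and 5558541 reads in normal tumour CAFs. Of 9 genes, 8 passed the filter on low counts and were tested with edgeR's quasi-likelihood test, adjusted by Benjamini-Hochberg over 12001 genes, with a threshold of 0.05. Values in CPM are reads set to one library total after TMM scaling, mean ± SD is over 2 libraries, and log2 fold changes, given with their SE, are positive where resistant tumour CAFs were higher. Fibroblast markers, 14 genes, summed to 12202 and 11548 CPM in resistant tumour CAFs, against 5472 and 4272 CPM in normal tumour CAFs. Of 13 tested, 12 rose and Postn did not pass. Fn1, the largest on average, gave 2817 and 2607 CPM in resistant tumour CAFs, against 1058 and 634 CPM in normal tumour CAFs. Pdgfra gave 1119 and 881 CPM in resistant tumour CAFs, against 29.7 and 7.41 CPM in normal tumour CAFs. Dcn gave 92.5 and 127 CPM in resistant tumour CAFs, against 0.743 and 0.168 CPM in normal tumour CAFs. Epithelial markers, 10 genes, summed to 46 and 63.9 CPM in resistant tumour CAFs, against 9.66 and 9.26 CPM in normal tumour CAFs. Krt19 gave 45.7 and 63.9 CPM of these sums in resistant tumour CAFs, against 6.44 and 6.40 CPM in normal tumour CAFs, and Krt14 had no read in resistant tumour CAFs, against 2.97 and 2.52 CPM in normal tumour CAFs. Endothelial markers, 8 genes, summed to 5.33 and 4.04 CPM in resistant tumour CAFs, against 57.5 and 50.5 CPM in normal tumour CAFs. Eng alone gave 2.66 and 2.57 CPM in resistant tumour CAFs, against 55.7 and 48.6 CPM in normal tumour CAFs. Leukocyte markers, 8 genes, summed to 17.1 and 18.4 CPM in resistant tumour CAFs, against 8.18 and 7.24 CPM in normal tumour CAFs. The endothelial markers Tie1 and Emcn, the leukocyte markers Ptprc, Cd3e and Emr1 and the epithelial markers Epcam, Krt5, Cdh1, Cldn4 and Cldn7 had no read in any library. In these bulk samples, fewer cells of a type and less RNA per cell cannot be told apart. In the RefSeq annotation the genes Ereg, Hbegf, Nrg1, Egfr, Erbb2 and Erbb3 overlap other genes. Of those other genes, only Mien1 at Erbb2 and Gm8179 and Gm3985 at Nrg1 are in the count table. Reads of these overlaps may have been counted for either gene or for neither.

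In resistant tumour CAFs the ligand gene Ereg and the receptor gene Egfr rose, by 2.63 ± 0.37 and 2.20 ± 0.41 on the log2 scale. The ligand genes Tgfa and Hbegf and the receptor gene Erbb3 fell, with Erbb3 and Tgfa at or near no read in both resistant libraries. Btc, Nrg1 and Erbb2 did not pass the test, and Areg was too low to be tested. The count was thus 2 higher and 3 lower of 8 tested, in a comparison where 29.4% of all tested genes were called, 15.5% higher and 13.9% lower. The median log2 fold change was -0.30 over the 5 tested ligands and -1.09 over the 3 receptors, beside -0.0036 over all tested genes. Each of the 9 genes had group ranges of CPM that did not overlap, which held for 64.7% of all tested genes. In 4 of them resistant tumour CAFs were higher and in 5 lower, where 31.9% and 32.9% of all tested genes had such ranges. With 2 libraries against 2, an exact permutation test of a single gene cannot go below p = 0.333.

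**Figure D1:**
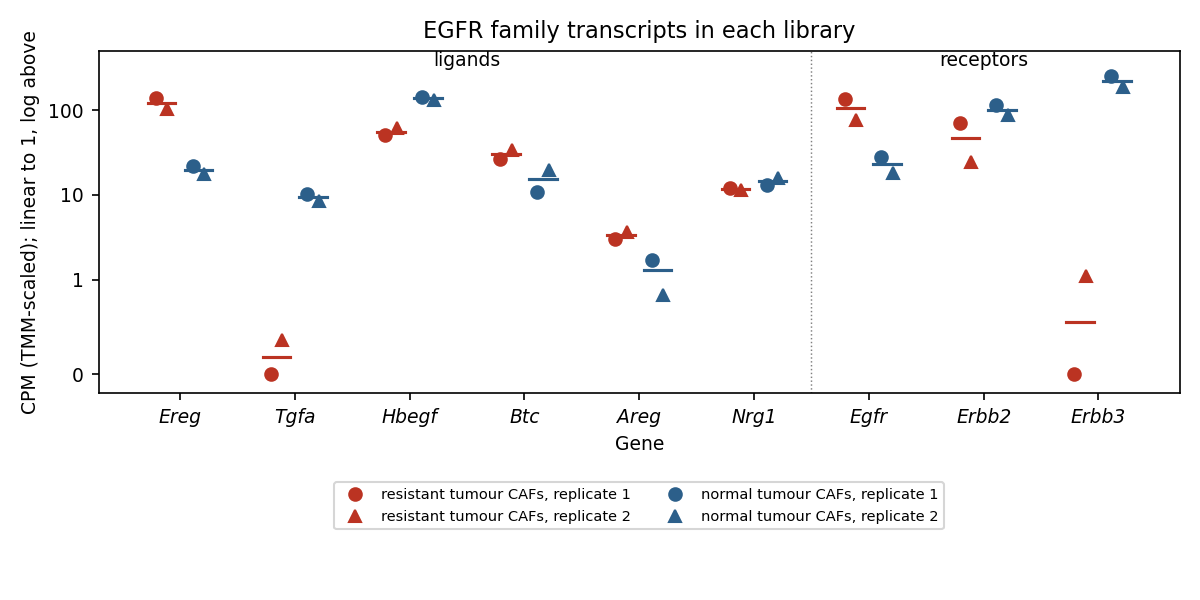
CPM of each EGFR family gene in each library (vertical axis, linear up to 1 CPM and logarithmic above), with resistant tumour CAFs left of normal tumour CAFs, circles for replicate 1, triangles for replicate 2 and a bar at the mean of 2. Ereg, Btc, Areg and Egfr sit higher in both resistant libraries, the other 5 genes sit lower in both, and Tgfa and Erbb3 reach 0 CPM in resistant replicate 1.

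Ereg encodes epiregulin, a ligand of EGFR and ERBB4. It had 367 and 282 reads (139.6 and 104 CPM) in resistant tumour CAFs, against 88 and 104 reads (21.8 and 17.5 CPM) in normal tumour CAFs. The lower resistant level was well above the higher normal level, and the replicates of each group lay close to each other. The fitted level was 6.19-fold higher (adjusted p = 2.07e-04). Over 15 alternative settings the log2 fold change stayed between 2.41 and 2.83, with adjusted p from 2.49e-11 to 0.0114. By Euclidean distance of centred log2 CPM over the 4 libraries, the tested genes nearest to Ereg were Tbc1d2 (distance 0.056), Tle4 (0.075) and Ltbp1 (0.11). In normal tumour CAFs these averaged 1.33, 1.33 and 75.1 CPM, the first pair near the low end of what was tested. Closeness over 4 libraries says little beyond a similar group difference.

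Hbegf encodes heparin-binding EGF-like growth factor, a ligand of EGFR and ERBB4. It had 132 and 166 reads (50.2 and 60.9 CPM) in resistant tumour CAFs, against 573 and 791 reads (142 and 133 CPM) in normal tumour CAFs. Both resistant libraries were low and both normal libraries high, on average 55.6 ± 7.57 CPM in resistant tumour CAFs, against 138 ± 6.24 CPM in normal tumour CAFs. The log2 fold change was -1.31 ± 0.32 (adjusted p = 0.00759). It kept its size without normal replicate 1 (-1.32) or normal replicate 2 (-1.39), but the SE rose to 0.64 in each and neither passed (adjusted p = 0.15 and 0.141).

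Tgfa, which encodes transforming growth factor alpha, a ligand of EGFR, had 0 and 1 read in resistant tumour CAFs, against 42 and 51 reads in normal tumour CAFs. Its log2 fold change was -5.44 ± 0.89 (adjusted p = 5.95e-04). The counts behind it were low, and 1 read in a resistant library stands for 0.38 or 0.367 CPM, so the size is loosely fixed: the ratio of pooled CPM, normal over resistant, was 49.9 (95% counting interval 8.74 to 1992). Hbegf and Tgfa thus fell while another ligand of the same receptor, Ereg, rose.

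Btc encodes betacellulin, a ligand of EGFR and ERBB4. It had 69 and 93 reads (26.3 and 34.1 CPM) in resistant tumour CAFs, against 44 and 117 reads (10.9 and 19.7 CPM) in normal tumour CAFs. The group ranges did not overlap, but the gap between the normal replicates was wider than the gap between the groups. The log2 fold change of 0.97 ± 0.44 did not pass (adjusted p = 0.125). It was 0.55 without normal replicate 1 and 1.43 without normal replicate 2.

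Nrg1 encodes neuregulin 1, a ligand of ERBB3 and ERBB4. It stood at 12.2 and 11.4 CPM in resistant tumour CAFs, against 13.1 and 15.8 CPM in normal tumour CAFs, and the log2 fold change of -0.30 ± 0.44 did not pass (adjusted p = 0.661). Areg encodes amphiregulin, a ligand of EGFR, and had 8 and 10 reads in resistant tumour CAFs, against 7 and 5 reads in normal tumour CAFs. Its ratio of pooled CPM, resistant over normal, was 2.80 (95% counting interval 1.27 to 6.36), an interval for counting error that leaves out the spread between replicates. Without a low-count filter its log2 fold change was 1.36 ± 0.80, which did not pass (adjusted p = 0.24).

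Ereg, Areg and Btc follow each other as neighbouring protein-coding genes on chromosome 5 in the RefSeq annotation, and Epgn, the gene of the EGFR ligand epigen, precedes Ereg. Of this cluster Ereg and Btc were tested, and Ereg alone passed. Epgn had 1 and 0 reads in resistant tumour CAFs, against 4 and 0 reads in normal tumour CAFs.

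The reads of the 6 ligand genes were divided differently between the groups, while their sum was 231 and 214 CPM in resistant tumour CAFs, against 199.9 and 196 CPM in normal tumour CAFs. Ereg took 60.4% (95% exact binomial interval 56.3 to 64.3) and 48.4% (44.2 to 52.5) of the ligand reads in resistant replicates 1 and 2, against 10.9% (8.84 to 13.3) and 8.95% (7.37 to 10.7) in normal replicates 1 and 2. Hbegf took 21.7% and 28.5% of them in resistant tumour CAFs, against 71% and 68.1% in normal tumour CAFs. The order of these ligand genes by reads was therefore Ereg first in both resistant libraries and Hbegf first in both normal libraries. A ratio of reads within a library does not depend on library scaling, and that of Ereg to Hbegf was 2.78 and 1.70 in resistant tumour CAFs, against 0.154 and 0.131 in normal tumour CAFs. These shares and ratios have no test of their own.

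Egfr encodes the receptor for most of these ligands. It had 353 and 211 reads (134 and 77.4 CPM) in resistant tumour CAFs, against 114 and 107 reads (28.2 and 18 CPM) in normal tumour CAFs. Resistant replicate 1 stood 1.73 times above resistant replicate 2, and both stood above the normal libraries. The fitted level was 4.59-fold higher (adjusted p = 0.00152). Without normal replicate 2 the log2 fold change was 1.86 and did not pass (adjusted p = 0.0687), whereas the other 14 alternatives kept the call. The tested genes nearest to Egfr in centred log2 CPM over the 4 libraries were Dnm3 (distance 0.073), Acsf2 (0.16) and Clip2 (0.16). In normal tumour CAFs these averaged 2, 11.6 and 25.3 CPM.

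Erbb2 encodes the partner receptor without a known ligand. It had 183 and 67 reads (69.6 and 24.6 CPM) in resistant tumour CAFs, against 459 and 519 reads (114 and 87.4 CPM) in normal tumour CAFs. Both resistant libraries were lower, but they differed from each other 2.83-fold. The log2 fold change was -1.09 ± 0.45 and did not pass (adjusted p = 0.0886). Without resistant replicate 1 the value was -2.02 and passed (adjusted p = 0.00301), and without resistant replicate 2 it was -0.53 (adjusted p = 0.175). It also passed with library totals (adjusted p = 0.021), no low-count filter (0.0164), limma-voom (0.0389), the replicate block (0.00208) and exonic length offsets (0.0482).

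Erbb3 encodes a neuregulin receptor of the family and, besides many epithelia, is known from Schwann cells and neural crest cells. It had 0 and 3 reads in resistant tumour CAFs, against 1010 and 1110 reads (250.2 and 187 CPM) in normal tumour CAFs. The normal libraries thus held the most abundant receptor transcript of the family and the resistant libraries held next to none. Its ratio of pooled CPM, normal over resistant, was 379 (95% counting interval 129.5 to 1840), and the log2 fold change of -8.53 ± 0.62 had an adjusted p = 3.67e-06. The tested genes nearest to Erbb3 in centred log2 CPM were Klhl30 (distance 0.44), Wscd1 (0.72) and Insc (0.95), each under 1 CPM on average in resistant tumour CAFs. Other markers of Schwann cells and neural crest, 11 genes without Erbb3, summed to 294 and 304 CPM in resistant tumour CAFs, against 1183 and 1106 CPM in normal tumour CAFs. Of these, 5 fell and 2 (Gap43 and Pmp22) rose among 8 tested. Sox10, a transcription factor that defines this lineage, had 2 and 1 reads in resistant tumour CAFs, against 745 and 821 reads in normal tumour CAFs. Foxd3 had 0 reads in both resistant libraries, against 47 and 59 reads in normal tumour CAFs. The part of such cells in the Erbb3 difference was not tested.

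**Figure D2:**
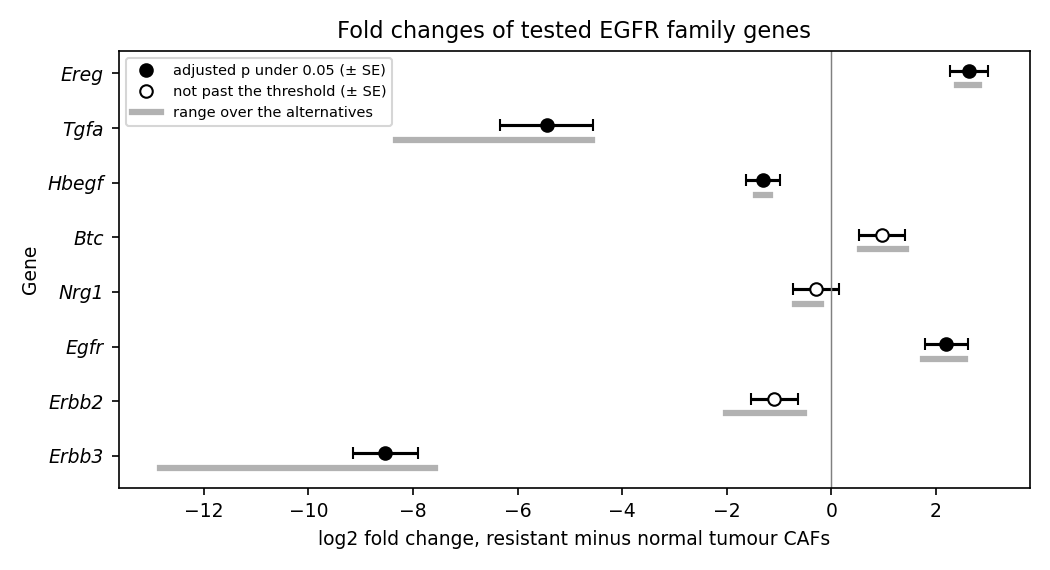
Log2 fold change (horizontal axis, resistant minus normal tumour CAFs) of the 8 tested genes with its SE; filled points had an adjusted p under 0.05, and grey bars span the alternative settings. Ereg (2.63) and Egfr (2.20) lie right of 0, Erbb3 (-8.53), Tgfa (-5.44) and Hbegf (-1.31) lie left of it, and the far ends of the bars of Erbb3 and Tgfa come from fits in which the resistant group had no read.

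Among the reads of the 3 receptor genes, Egfr took 65.9% (95% exact binomial interval 61.7 to 69.9) and 75.1% (69.6 to 80) in resistant replicates 1 and 2, against 7.20% (5.98 to 8.59) and 6.16% (5.08 to 7.40) in normal replicates 1 and 2. Erbb3 took 0% (up to 0.686) and 1.07% (0.221 to 3.09) in resistant tumour CAFs, against 63.8% (61.4 to 66.2) and 63.9% (61.6 to 66.2) in normal tumour CAFs. The share of Erbb2 differed much less, at 34.1% and 23.8% in resistant tumour CAFs, against 29% and 29.9% in normal tumour CAFs. As a ratio of reads within a library, Egfr to Erbb2 was 1.93 and 3.15 in resistant tumour CAFs, against 0.248 and 0.206 in normal tumour CAFs. The summed level of the 3 receptor genes was 204 and 103 CPM in resistant tumour CAFs, against 392 and 292 CPM in normal tumour CAFs. Shares of reads are not shares of transcripts, since the genes differ in length, and these intervals cover counting error only.

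**Figure D3:**
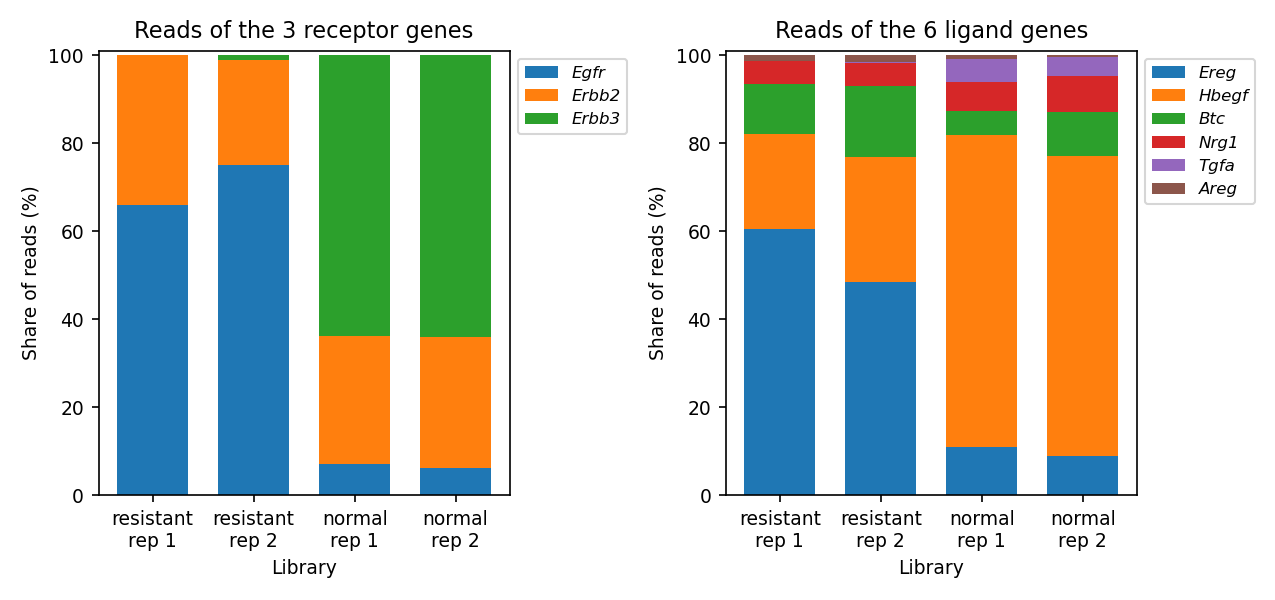
Share of reads (percent) of the 3 receptor genes (left) and the 6 ligand genes (right) in each of the 4 libraries, resistant tumour CAFs before normal tumour CAFs. Egfr and Ereg take the largest shares in both resistant libraries, and Erbb3 and Hbegf in both normal libraries.

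Levels of different genes were set side by side per kilobase of annotated exon. In resistant tumour CAFs Ereg came first at 29.5 ± 6.19 CPM per kilobase, followed by Hbegf (11.5 ± 1.57), Egfr (9.35 ± 3.55), Erbb2 (9.04 ± 6.11) and Btc (6.68 ± 1.23). Hbegf, Egfr, Erbb2 and Btc did not separate from their neighbours in that order, since the ranges of each adjacent pair overlapped. Below them came Areg (2.76 ± 0.364) and Nrg1 (1.14 ± 0.0545), with Erbb3 and Tgfa last at levels of a few reads. In normal tumour CAFs the order began with Erbb3 (36.3 ± 7.45), Hbegf (28.5 ± 1.29) and Erbb2 (19.3 ± 3.58), whose ranges did not overlap. Ereg (4.76 ± 0.736), Btc (3.38 ± 1.38), Egfr (2.04 ± 0.639), Tgfa (1.46 ± 0.199), Nrg1 (1.40 ± 0.184) and Areg (1.06 ± 0.52) followed, with overlapping ranges between each adjacent pair. The lengths are those of all annotated exons of a gene in GENCODE M21 and overstate the length of a single transcript.

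The rest of the family was close to absent in both groups, and none of its 6 genes passed the low-count filter. Egf, the founding ligand, had 11 and 5 reads in resistant tumour CAFs, against 5 and 10 reads in normal tumour CAFs. Nrg2 had 2 and 1 reads in resistant tumour CAFs, against 1 and 0 reads in normal tumour CAFs. Nrg4 had 2 and 0 reads in resistant tumour CAFs and none in normal tumour CAFs. Nrg3 and Erbb4, the gene of the fourth receptor, had no read in any library, where a count of 0 allows up to 1.14 and 1.1 CPM in the resistant libraries and 0.743 and 0.505 CPM in the normal libraries.

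Genes that act on these ligands and receptors were read from lists by role. The lists were chosen with earlier results of these data known, so a called share above that of all tested genes is no test of a list. Of 9 genes for ligand shedding, 1 rose and 3 fell (44.4% called, against 29.4% of all tested genes), and the median log2 fold change was 0.37. Adam17, the main sheddase of TGF-alpha, HB-EGF, amphiregulin and epiregulin, rose by 1.13 ± 0.28 (adjusted p = 0.00862), with 196 ± 14.8 CPM in resistant tumour CAFs, against 89.3 ± 8.91 CPM in normal tumour CAFs. Adam10, a sheddase of EGF and betacellulin, had a log2 fold change of -1.12 ± 0.29, at 172 ± 65.4 CPM in resistant tumour CAFs, against 373 ± 32.9 CPM in normal tumour CAFs. Rhbdf1 and Rhbdf2 encode the iRhom proteins, which bring ADAM17 to the cell surface, and both fell (-1.09 ± 0.37 and -1.55 ± 0.45). Fewer shedding genes were called without normal replicate 1 or without normal replicate 2, and so were fewer genes over the whole table. The log2 fold changes without normal replicate 1 and without normal replicate 2 were 0.97 and 1.20 for Adam17, -1.28 and -1.07 for Adam10, -1.67 and -1.53 for Rhbdf2, and -1.23 and -1.06 for Rhbdf1. The SE of Adam17 was 0.56 and 0.58 in those fits, against 0.28 with all libraries. Without resistant replicate 2 more shedding genes were called higher, as were more genes over the whole table.

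Of 13 genes listed for restraint and turnover of the receptors, 4 rose and 2 fell (46.2% called, against 29.4% of all tested genes). Their median log2 fold change was 0.28. Errfi1 encodes MIG6, which binds and inhibits the EGFR kinase, and rose by 2.29 ± 0.41 (adjusted p = 0.00104). It stood at 235 ± 117 CPM in resistant tumour CAFs, against 47.9 ± 20.4 CPM in normal tumour CAFs. Cblb, a ubiquitin ligase that marks active EGFR for breakdown, rose by 2.39 ± 0.37, and Socs3 and Socs5, members of the suppressor of cytokine signalling family, rose by 1.93 ± 0.34 and 1.23 ± 0.26. Ubash3b fell, with a log2 fold change of -4.93 ± 0.46 (adjusted p = 1.37e-05), at 4.89 ± 2.77 CPM in resistant tumour CAFs, against 149.9 ± 5.31 CPM in normal tumour CAFs. Its product is a phosphatase known to oppose the CBL-driven breakdown of EGFR, unlike MIG6 and CBLB. Fewer genes of this list were called without normal replicate 1 or without normal replicate 2, as over the whole table. Without resistant replicate 1 more were called lower, also as over the whole table. Socs3 had 1.76 ± 0.70 without normal replicate 1, and Socs5 had 1.19 ± 0.48 and 1.15 ± 0.49 without normal replicate 1 and without normal replicate 2.

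Of 26 adaptors and kinases downstream of the receptors, 2 rose, 5 fell and 19 did not pass the test, with a median log2 fold change of -0.20. The called share, 26.9%, was near the 29.4% of all tested genes. Shc1, an adaptor that binds the activated receptors, rose by 1.75 ± 0.23 and Stat3, a transcription factor activated by them, by 1.96 ± 0.28. Pik3cb, a catalytic subunit of PI3K, had -2.79 ± 0.43, and the RAS gene Hras (Hras1 in the table) had -1.93 ± 0.41. The lower count was 8 with library totals, with no low-count filter and with the replicate number as a block. Those settings called 2150 of 12001, 2142 of 17243 and 2267 of 12001 tested genes lower over the whole table. The reported fit called 1668 of 12001 lower. Without resistant replicate 1 the lower count of the list was also larger, as it was over the whole table.

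Of 16 genes known to respond to EGFR and MAPK signalling, 6 rose and 3 fell (56.2% called, against 29.4% of all tested genes). Their median log2 fold change was 0.62. Myc rose by 2.06 ± 0.25 (adjusted p = 6.93e-05), at 429.6 ± 7.54 CPM in resistant tumour CAFs, against 103 ± 10.7 CPM in normal tumour CAFs. The feedback inhibitors Spry4 and Spred1 rose by 2.08 ± 0.51 and 1.13 ± 0.33, the early response gene Ier3 by 1.45 ± 0.31 and the transcription factor gene Etv5 by 1.19 ± 0.34. The 3 lower genes, chosen for naming with their values known, were the feedback inhibitor gene Spry2 (-1.83 ± 0.56, adjusted p = 0.0275), Phlda1 (-1.74 ± 0.52, adjusted p = 0.0237) and the transcription factor gene Etv4 (-1.21 ± 0.38, adjusted p = 0.0307). The ERK phosphatase gene Dusp6 and the MAPK phosphatase gene Dusp4, chosen likewise, had -0.12 ± 0.36 and 0.23 ± 0.36 and did not pass. Myc kept its call in all 15 alternatives. Without normal replicate 1 or without normal replicate 2 fewer genes of this list were called in each direction, as over the whole table. Without resistant replicate 2 fewer were called lower, while more genes were called lower over the whole table. In the fits without normal replicate 1 and without normal replicate 2, the log2 fold changes were 1.40 and 1.40 for Ier3, 0.90 and 1.29 for Spred1, 1.51 and 2.94 for Spry4, and 0.81 and 1.56 for Etv5, with SE of 0.61 to 0.82.

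**Figure D4:**
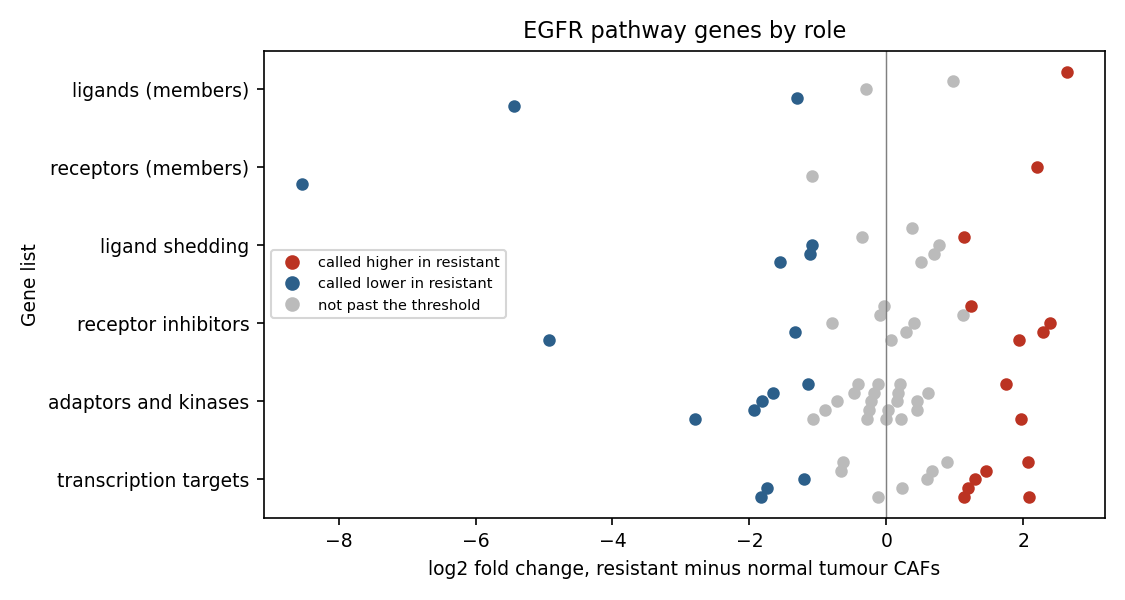
Log2 fold change (horizontal axis, resistant minus normal tumour CAFs) of each tested gene of the EGFR family and of 4 lists of pathway genes, 1 row per list, coloured by the call. Every list holds genes called in both directions, and the widest values are those of Erbb3 (-8.53), Tgfa (-5.44) and Ubash3b (-4.93).

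The authors' deposited table was read for the same 9 genes. Its test statistic was 0 only for genes with a log2 fold change of at most 1.01 in size. Its p-values thus appear to test for a log2 fold change beyond about 1 in size, whereas the edgeR p-values test for any change. Adjusted p-values of these tests are therefore not comparable. Its calls all had an adjusted p up to 0.0999 and a log2 fold change of at least 2 in size. In the authors' deposited table, called genes made up 4.89% (up) and 3.61% (down) of 15879. The authors' deposited table called Ereg (2.60 ± 0.38, adjusted p = 6.47e-04) and Egfr (2.17 ± 0.43, adjusted p = 0.0654) up. It called Erbb3 (-8.63 ± 0.91, adjusted p = 8.17e-15) and Tgfa (-5.69 ± 1.69, adjusted p = 0.0596) down, again in the authors' deposited table. Hbegf, at -1.33 ± 0.35, was not called there, nor were Btc, Areg, Nrg1 and Erbb2 in the authors' deposited table.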

How the data were processed

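Polyadenylated RNA of 4 CAF libraries was analysed. The counts are whole-number reads per gene symbol as deposited by the authors. The submitters' processing notes name DESeq2, HTSeq 0.7.2, TopHat2 2.1.1, Picard 1.62, bcl2fastq 2 and the mm9 build; for settings and annotation, the sources used here give nothing. The authors' normalized signal equals these counts times 1 constant per library (largest deviation 3.09e-11) and was not tested. The log2 fold changes, statistic (a score), p-values and adjusted p-values of the authors' deposited table were quoted only.

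Counts were tested with edgeR 4.0.16 (R 4.3.3): filterByExpr (minimum count 10), TMM scaling and the quasi-likelihood F test with group as the only term. The fit and adjustment ran over all tested genes, and the fits were tested on simulated data. Alternatives used DESeq2 1.42.0, limma 3.58.1 voom, the likelihood ratio test, other scalings and filters, a replicate block, and fits without each library; offsets along reads per exonic base or exonic length were chosen after seeing the data. The 9 genes and the lists were chosen with earlier results of these data known. Named were all 9 genes, up to 5 called genes of smallest adjusted p per list (some results that this rule covers are not reported here), and the 3 genes nearest to Ereg, Egfr and Erbb3. Intervals are exact, at 95%, and cover counting error only, as does the floor of 3 counts. Replicates differed beyond sampling noise (chi-square per degree of freedom 18.6 in resistant and 11.8 in normal tumour CAFs).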

Additional observations from a re-analysis of the deposited data

How the results depend on the processing

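Ereg, Tgfa and Erbb3 kept their direction and call in every alternative that tested them (15, 14 and 15). Erbb2 did not pass as reported (adjusted p = 0.0886), but passed with library totals (-1.24), no low-count filter (-1.15), limma-voom (-1.25), the replicate block (-1.25) and exonic length offsets (-1.11). Library totals moved the median of all genes by -0.14, close to the extra shift of Erbb2. The replicate block also brought Btc past the threshold (1.02, adjusted p = 0.0397) and gave 2257 higher and 2267 lower genes over the whole table. Same-numbered libraries deviated together (r = 0.217 across genes), but with 2 pairs the number is not shown to mark a shared origin. Tgfa was not tested with at least 50 reads in 2 libraries.

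Fits without 1 library take the lone library of a group to vary like the pair of the other. Log2 fold changes then ranged from 2.41 to 2.83 for Ereg, 1.76 to 2.55 for Egfr, -1.45 to -1.17 for Hbegf, 0.55 to 1.43 for Btc, -0.49 to -0.20 for Nrg1, -2.02 to -0.53 for Erbb2, -8.32 to -4.57 for Tgfa and -12.84 to -7.59 for Erbb3. Fitted values of Tgfa and Erbb3 without resistant replicate 2 have no read in that group and are no bounds. Of the family, 1 to 2 genes were called higher and 2 to 4 lower. Over the pathway lists, 13 higher and 13 lower with all libraries became 5 to 20 and 5 to 19. Over the whole table, 1857 higher and 1668 lower became 1078 to 2024 and 951 to 2323; the cause was not tested. Read density offsets changed no call of the family. Depth limits Areg, Tgfa and the rest of the family, with 1 read worth 0.168 to 0.38 CPM.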
